A study of Rattus norvegicus with 6 samples.

Results

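Small RNA was sequenced from rat testis, and 182 of the 721 entries of the expression table (25.2%) were predicted miRNAs that carry no miRBase name. They were chosen by name alone, as every entry whose name does not begin with the rat prefix rno-, and no measured value entered the choice. Each carries an identifier made of a chromosome prefix and a number, such as X_47314, and some carry the ending star for the second arm of the same identifier. The table pairs none of them with a gene, a sequence, a position or a strand, so the prefix is taken as a chromosome, and nearness of numbers as nearness in the list, only from how the identifiers are written.

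The 6 libraries came from testicular tissue of Sprague-Dawley rats, 3 in the diabetic (DM) group and 3 in the normal group. Diabetic rats had received streptozotocin (STZ), a toxin of the insulin-producing beta cells of the pancreas, and were profiled at week 8. Per the study's methods they had first been fed a high-fat diet and were then given 1 intraperitoneal dose, control rats were injected with citrate buffer, and the rats are described as adult males. The model thus combines a diet with a chemical loss of beta cells, and each library holds RNA of whole testis, in which fewer cells of a type and less RNA per cell cannot be told apart.

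A miRNA is cut from a hairpin transcript, first by Drosha in the nucleus and then by Dicer in the cytoplasm, which leaves a short duplex of both hairpin arms. One strand is usually kept by an Argonaute protein and guides it to messenger RNAs that match the seed, and the other, the star or passenger strand, is mostly degraded. Prediction programs propose a new miRNA where small RNA reads stack on a sequence that can fold into such a hairpin, and fragments of other structured RNAs can produce similar stacks. A predicted entry is therefore a candidate and not an established miRNA. The testis is rich in small RNAs, among them miRNAs of meiotic and post-meiotic germ cells, such as the miR-34 and miR-449 family, and the Piwi-interacting RNAs of spermatogenic cells, which are made without Dicer.

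The libraries held 305476 to 549446 reads over all listed miRNAs, and diabetic replicate 1 was the shallowest. Abundance is given as CPM, where the listed miRNA reads of every library are scaled to a common total, and as whole reads recovered from the CPM. One read was worth from 1.82 to 3.27 CPM, and a level of at most 3 reads in a library is treated here as the floor. The markers of the labelled tissue were present: 10 of 10 germ-cell miRNAs were listed, led by miR-34c-5p, and together they made up from 378033 to 427603 CPM. The summed miRNAs of other tissues were low, at 18.8 to 58.9 CPM for skeletal muscle (3 miRNAs) and 72.6 to 134.2 CPM for epithelium such as that of the epididymis (5 miRNAs). Sertoli-cell miRNAs (2) summed to 4102 to 4467 CPM in diabetic and 3262 to 3693 CPM in normal libraries, and miR-122-5p, a liver miRNA, was at 935.5 to 1372 against 1839 to 2786 CPM. In neither case did the groups overlap, whereas the sums for germ cells, skeletal muscle and epithelium did. Across the miRNAs tested between groups below, 14.9% did not overlap. The 2 Sertoli-cell miRNAs went in different directions. On the log2 scale, diabetic minus normal, miR-202-5p differed by 0.2997 and miR-202-3p by -0.185. The part of these levels in the results on predicted miRNAs was not tested.

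The predicted miRNAs were numerous but scarce. Together they held 16693 of 2690909 reads (0.620%). Their median level was 2.0 reads per library, against 7.67 for the 539 known miRNAs. Of the 182 entries, 8 averaged more than 100 reads per library, 33 lay between 10 and 100 reads, 95 between 1 and 10 reads, and 46 averaged less than 1 read. In all, 141 (77.5%) averaged under 10 reads, compared with 284 (52.7%) of the known miRNAs. No predicted miRNA came near the levels of the leading known ones, and the highest ranked 83 among all 721 entries.

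**Figure D1:**
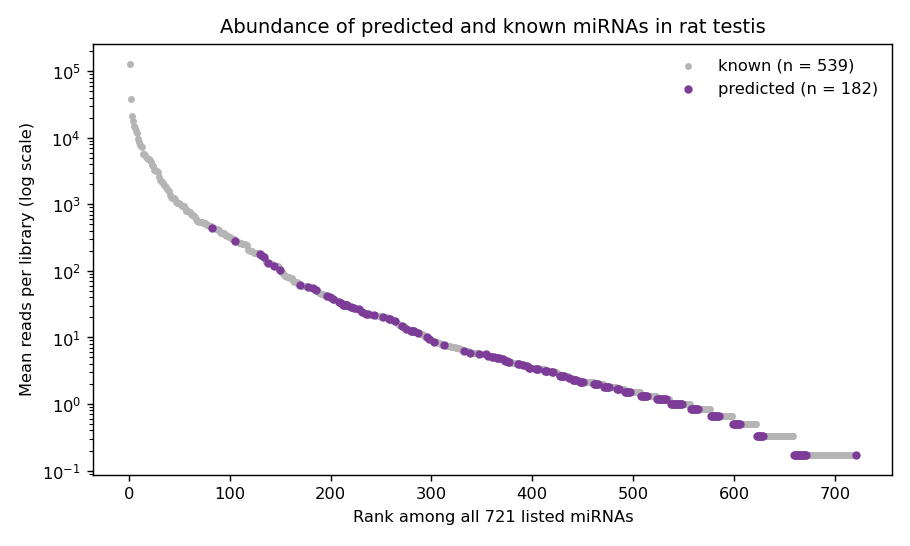
Mean reads per library (log scale) of all 721 listed miRNAs, ordered by rank, with the 182 predicted miRNAs in purple and the 539 known miRNAs in grey. The first 82 ranks are all known miRNAs, and most predicted ones lie below 10 reads per library.

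Reads were concentrated in a few entries. X_47314 alone held 2674 reads, 16.0% of all predicted reads. The 10 most abundant held 61.5% and the 30 most abundant 84.6%. These 10 were X_47314, 11_31681, 2_7628, 2_7622, X_46801, 10_30002, 17_40737, 11_31672, 4_15389 and 4_15339, and their mean levels over the 6 libraries fell from 1124 CPM for the first to 129.6 CPM for the last.

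The steadiest of the leading members differed little between libraries. 4_15339 was at 150.6, 126.3 and 134.7 CPM in diabetic replicates 1, 2 and 3 and at 124.7, 127.9 and 113.2 CPM in normal replicates 1, 2 and 3. 11_31681 was at 716.9, 540.3 and 651.6 CPM against 643.7, 674.0 and 588.5 CPM. In both cases the groups overlapped. The coefficient of variation over all 6 libraries was 9.60% for 4_15339 and 9.87% for 11_31681, beside 13.4% and 6.05% that counting error alone would give at their depth.

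X_47314 was the opposite case. It was at 1810.3, 2838 and 453.2 CPM in the diabetic libraries and at 378.5, 560.3 and 703.6 CPM in the normal libraries. Diabetic replicates 1 and 2 lay above every other library, whereas diabetic replicate 3 lay within the normal range. Its coefficient of variation was 88.2%, beside 4.55% from counting alone. Of the 257 miRNAs, known ones included, that reached 10 reads in each library, 0 known miRNAs varied more, and the highest among them reached 51.5%. After X_47314 the most variable predicted miRNA of that kind was 1_2893 at 50.6%, singled out after its values were seen, with 26, 33 and 28 reads in the diabetic and 34, 83 and 101 reads in the normal libraries.

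**Figure D2:**
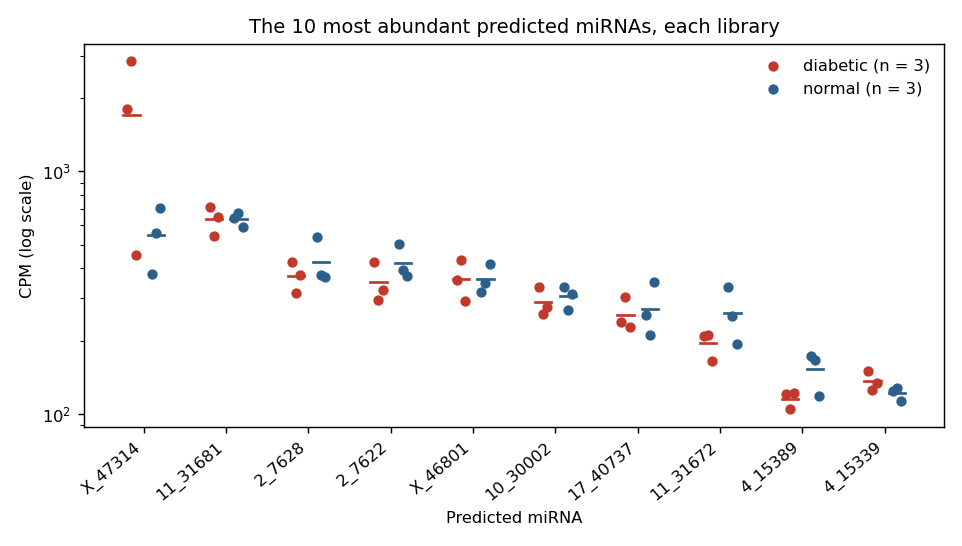
CPM (log scale) of the 10 most abundant predicted miRNAs in each library, with diabetic libraries in red, normal libraries in blue and the mean of each group of 3 as a horizontal line. X_47314 spans 378.5 to 2838 CPM with 2 diabetic libraries far above the rest, while the groups of the other 9 lie close together.

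Among the 30 predicted miRNAs that reached 10 reads in each of the libraries, the median coefficient of variation was 22.3%, beside a median of 17.4% from counting alone. For the 227 known miRNAs that deep it was 14.5%, beside 6.46% from counting. In 6 of the 30 the libraries varied less than counting error would give, and in 10 they varied by more than 2 times as much. Per member, the ratio of the observed to the counting value had a median of 1.65. Counting error covers sampling of reads only, since no molecular identifiers were described.

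9_28531 showed a different kind of spread. Its reads were 30, 68 and 93 in diabetic and 55, 85 and 2 in normal libraries. Normal replicate 3 was far below the other 5 libraries, although it was one of the deeper ones with 530132 reads. On the log2 scale, diabetic minus normal was 1.63, SE 0.91 (adjusted p = 0.671 by limma; p = 0.6 by exact permutation), and without normal replicate 3 it was -0.018. On recovered reads edgeR put it at 0.61.

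Detection differed from that of known miRNAs mainly at the upper end. Every listed entry had at least 1 read in some library, and candidates with no read at all are not listed. Of the predicted miRNAs, 71 (39.0%) had reads in all 6 libraries, 20 (10.99%) in a single library, and 14 (7.69%) had only 1 read in total. Of the known miRNAs, 338 (62.7%) were found in all 6 libraries, 68 (12.6%) in a single one, and 49 (9.09%) had only 1 read. The shares with 1 library or 1 read were thus slightly lower among predicted than among known miRNAs. At least 10 reads in every library were reached by 30 predicted (16.5%) and 227 known miRNAs (42.1%).

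The number of predicted miRNAs with reads was 127, 107 and 139 in the diabetic libraries and 128, 131 and 136 in the normal libraries. Diabetic replicate 2 was the lowest, and the other 5 libraries lay within 127 to 139. The means were 124 ± 16.2 for diabetic and 132 ± 4.04 for normal libraries (SD, n = 3 each; two-sided exact permutation p = 0.6, with 0.1 the smallest this design allows). After thinning to 305476 reads per library in a single random draw, both groups had a mean of 118. Diabetic replicate 2 was still the lowest in that draw, at 106, and the other libraries ran from 112 to 127.

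Entries found in only 1 of the groups were scarce. There were 17 with reads in diabetic libraries only, of which 10 were in a single library, and 16 with reads in normal libraries only, of which 10 were in a single library. The most reads of such an entry in any library was 7 among the first and 12 among the second. Those 12 reads belonged to 17_40528, which had 0 reads in every library except normal replicate 2. The same library held all 10 reads of 3_11049, and normal replicate 1 held all 7 reads of 19_43165. These 3 were singled out after their values were seen, and each rests on 1 library.

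Identifiers carried 21 different prefixes, 1 to 20 and X, and 0 had the prefix Y. The rat has an autosome 20 and the mouse has none, although the submitters' processing notes name only the mouse build mm8. The number in the identifier ran from 173 to 47314 and rose with the prefix, with 0 overlaps between the ranges of successive chromosomes. Counts of entries were uneven: chromosome 17 had 24 rows, chromosome 1 had 20 and chromosome 4 had 16, whereas chromosome 13 had 1 and chromosome 18 had 2.

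Reads were spread differently from rows. The X prefix had only 5 rows but 22.2% of predicted reads, and X_47314 made up 72.3% of these. Chromosome 11 held 15.5% on 8 rows, chromosome 2 held 13.3% on 11 rows, and chromosome 17 held 12.0% on 24 rows. Chromosomes 1 and 3 showed the reverse, with 5.10% of reads on 20 rows and 1.07% on 10 rows. The remaining X entries were X_46801, at 109, 160 and 161 reads in the diabetic and 141, 171 and 221 in the normal libraries, its star row with 1 read, and X_46961 and X_46291 with 34 and 27 reads in all.

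**Figure D3:**
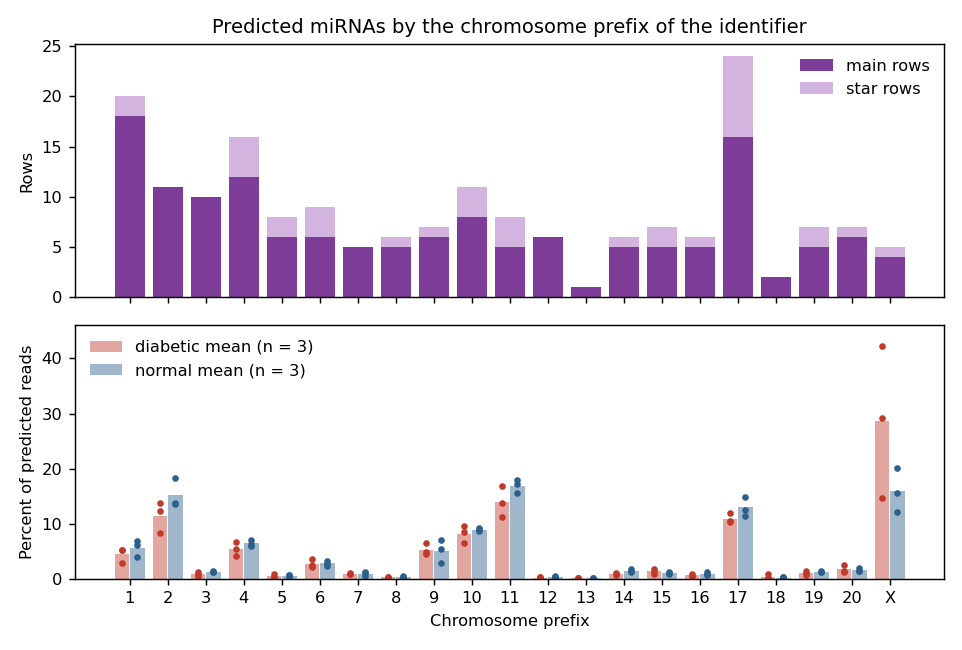
Upper panel, number of predicted rows by chromosome prefix, split into main and star rows. Lower panel, percent of predicted reads by prefix, with bars for the mean of each group of 3 and points for single libraries; 17 has the most rows (24), while X, with 5 rows, has the largest share of reads and the widest spread, from 12.1% to 42.3%.

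Several identifiers had neighbouring numbers. Taking gaps of at most 20 on the same prefix, 47 of the 148 identifiers fell into 18 runs that held 44.9% of predicted reads. The largest was a run of 9 identifiers on chromosome 17, numbered from 40737 to 40770, which made up 15 of the 24 rows of that chromosome and 1865 reads. Its members were unequal, from 714 reads for 17_40737 to 1 read for 17_40767, and 7 of its rows had at least 10 reads in every library. Summed over the run, the level was 733.3, 760.7 and 582.4 CPM in the diabetic and 704.9, 611.2 and 803.8 CPM in the normal libraries (exact permutation p = 0.8), so the groups overlapped.

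The neighbours 2_7622 and 2_7628 had nearly the same level in every library. 2_7622 had 130, 110 and 179 reads in the diabetic and 221, 193 and 197 in the normal libraries. 2_7628 had 129, 118 and 206 against 236, 184 and 195. The ratio of the first to the second ran only from 0.869 to 1.05. For comparison, the ratio of 11_31672 to 11_31681 ran from 0.254 to 0.521 and that of 1_6709 to 1_6718, a pair picked after its values were seen, from 0.519 to 1.53. Whether these entries have similar sequences is not known here. How reads that match several places were assigned is not given in the sources used here, so the levels of entries with similar sequences, if any, are uncertain. Among entries with at least 10 reads in all, 0 had the same values as another entry in every library.

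Both arms were listed for 34 identifiers. A further 113 had a main row only and 1, 5_15678, had a star row only. With reads summed over the 6 libraries, the median identifier with both arms had 113.5 reads on its main row. For identifiers with a main row only, the median sum was 11 reads. Identifiers with a main row only nevertheless held 9451 reads, 56.6% of all predicted reads, and 15 of them reached 10 reads in each library. They included 5 of the 10 most abundant entries, X_47314, 2_7628, 2_7622, 10_30002 and 11_31672. In these pairs the star rows held 542 reads (7.49%) and the main rows 6697. The main row was the higher in 31 pairs and the star row in 3. In 17 pairs the star row had at most 5 reads, and in 9 pairs it was found in all 6 libraries.

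The 6 most abundant pairs were all dominated by the main row. 11_31681 had 1706 main and 88 star reads (4.91% star), and the star row had 12, 22 and 12 reads in the diabetic and 8, 16 and 18 in the normal libraries. X_46801 had 963 main reads and 1 star read (0.104%), the most lopsided of all pairs. 17_40737 had 714 and 61 reads (7.87%), with a star row steady at 9, 9 and 10 against 11, 9 and 13 reads. 4_15389 had 365 and 19 reads (4.95%), 4_15339 had 345 and 19 (5.22%), and 9_28531 had 333 and 6 (1.77%).

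Other pairs, singled out after their values were seen, departed from this pattern. In 11_31070 the arms were nearly equal, with 76 main and 71 star reads, and the star share ran from 27.6% to 68.2% between libraries. In 14_35969 the star row made up 26.6%. In 1_2944 the labels were turned around, since the star row had 76 reads and the main row 4, and the star row was found in all 6 libraries and the main row in 2. 10_30314 and 15_37586 also had more star than main reads, at 29 against 13 and 11 against 8.

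**Figure D4:**
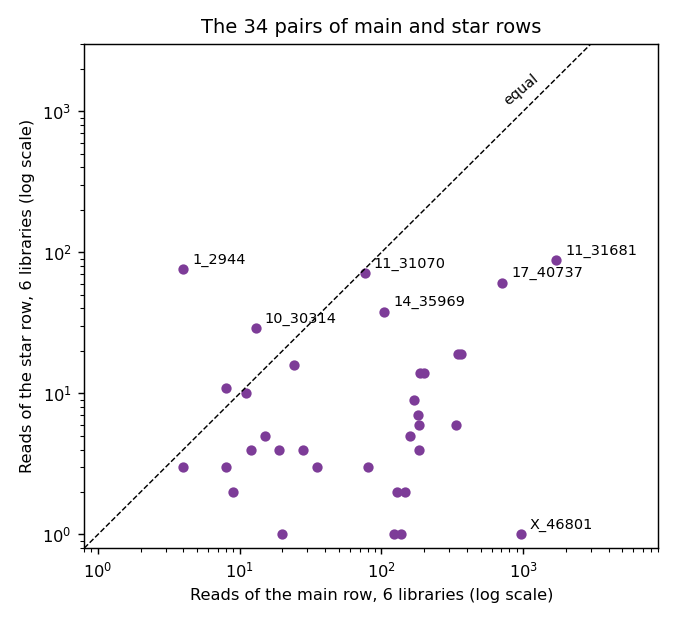
Reads of the star row against reads of the main row, both summed over the 6 libraries on log scales, for the 34 identifiers with both rows; the dashed line marks equal reads. Below the line lie 31 pairs, and 1_2944 and 10_30314 are among the 3 above it.

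The share of the less abundant arm was also computed for known miRNAs. With at least 100 reads on both arms together, its median was 3.70% over 19 predicted pairs and 2.31% over 127 known pairs. Over all pairs the medians were 5.91% for 34 predicted and 6.05% for 178 known. The medians were close over all pairs and higher for predicted pairs among the deeper ones. The difference was not tested, and arms of lower level cannot be seen at low depth.

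The balance of the arms was compared between diabetic and normal libraries. The summed star share was 6.74%, 6.87% and 8.10% in the diabetic and 8.66%, 7.16% and 7.10% in the normal libraries. The means were 7.24% ± 0.755 and 7.64% ± 0.885 (SD, n = 3 each; exact permutation p = 0.5). Among 17 pairs with at least 10 reads of both arms together in every library, the star share was lower in the diabetic group in 13 and higher in 4. Of the 13, X_46801, 6_19174 and 4_14914 had only 1 star read each over all libraries, so their direction rests on that read. Further pairs among the 13 had hardly more. Diabetic libraries held 2 star reads of 10_30670 and normal libraries 2, and for 15_37552 it was 2 against 3. For 6_19988, diabetic replicate 3 and normal replicate 3 held 1 star read each. Among the 4 that were higher, 17_40760 had 4 star reads against 2. Thus 13 against 4 is a count given as a description only. The count was not made for known pairs and was not tested. The median star share over these pairs was 1.49 percentage points lower in the diabetic group (exact permutation p = 0.3). The smallest exact permutation p for a single pair was 0.1, for 17_40739, and it was 1.0 after Benjamini-Hochberg adjustment over the 17.

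The predicted miRNAs took 0.748%, 0.777% and 0.534% of reads in the diabetic and 0.594%, 0.596% and 0.571% in the normal libraries. The 95% Wilson intervals were 0.718 to 0.779%, 0.749 to 0.805% and 0.515 to 0.554% in the diabetic libraries, and together they spanned 0.551 to 0.618% in the normal ones, so that diabetic replicates 1 and 2 lay above and replicate 3 slightly below the values of the normal libraries. The means were 0.686% ± 0.132 and 0.587% ± 0.0143 (SD, n = 3 each; exact permutation p = 0.4). Without X_47314 they were 0.516% ± 0.0438 and 0.532% ± 0.0289 (SD, n = 3 each; exact permutation p = 0.7), so the higher mean of the diabetic group was not seen without that entry.

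The same entry set the share of the X prefix. It was 29.2%, 42.3% and 14.6% of predicted reads in the diabetic and 12.1%, 15.6% and 20.1% in the normal libraries (exact permutation p = 0.3), with overlapping groups. Without X_47314 the means were 7.43% ± 1.36 and 7.26% ± 1.43 (SD, n = 3 each; exact permutation p = 0.8). Over all 21 prefixes the smallest exact permutation p was 0.1, for chromosome 14, whose share was 0.887% ± 0.205 among diabetic and 1.49% ± 0.326 among normal libraries (SD, n = 3 each; adjusted over the 21 prefixes, p = 0.7). As shares of a fixed total, these values fall for every other prefix when X_47314 rises.

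The central comparison asked which miRNAs differed between diabetic and normal testis. With limma on log2(CPM + 1), 142 of the 182 predicted miRNAs passed the filter of at least 1 CPM in at least 3 libraries and were tested together with 436 known ones. The other 40 predicted miRNAs reached 1 CPM in fewer than 3 libraries and did not enter. Of the 142, 0 had an adjusted p under 0.05, as for the whole table (0.0% of the 578 tested), and the smallest adjusted p was 0.348. The quasi-likelihood test of edgeR on the recovered reads called 1, X_47314, and the DESeq2 Wald test called 0. At an unadjusted p under 0.05 there were 11 predicted miRNAs (7.75%), where 8.82% of the whole table did so.

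Differences were balanced in direction. Of the 142, 68 were higher and 74 lower in the diabetic group, with a median log2 difference of -0.045, beside 0.0046 over all 578 tested. Groups did not overlap for 17 of them (12.0%), beside 14.9% of all tested miRNAs. Of the 17, 9 were higher (all tested, 7.96%) and 8 lower (6.92%). The share of predicted miRNAs without overlap was thus no larger than that of the table.

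The study screened miRNAs with DESeq, at a log2 difference of 1 or more in size with p under 0.05. With these thresholds on the limma fit and its unadjusted p, a different test, 9 predicted miRNAs passed (6.34%), beside 4.67% of the whole table. Of these, 6 were higher in the diabetic group (all tested, 2.94%) and 3 lower (1.73%). Their adjusted p-values in limma ran from 0.348 to 0.492. Most were scarce: 8 of the 9 averaged under 10 reads, had at most 6 reads in any library and held 72 reads in all. Among tested miRNAs under 10 reads, 8 of 101 predicted (7.92%) and 16 of 181 known (8.84%) passed, and above that level 1 of 41 predicted (2.44%) and 2 of 255 known (0.784%).

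**Figure D5:**
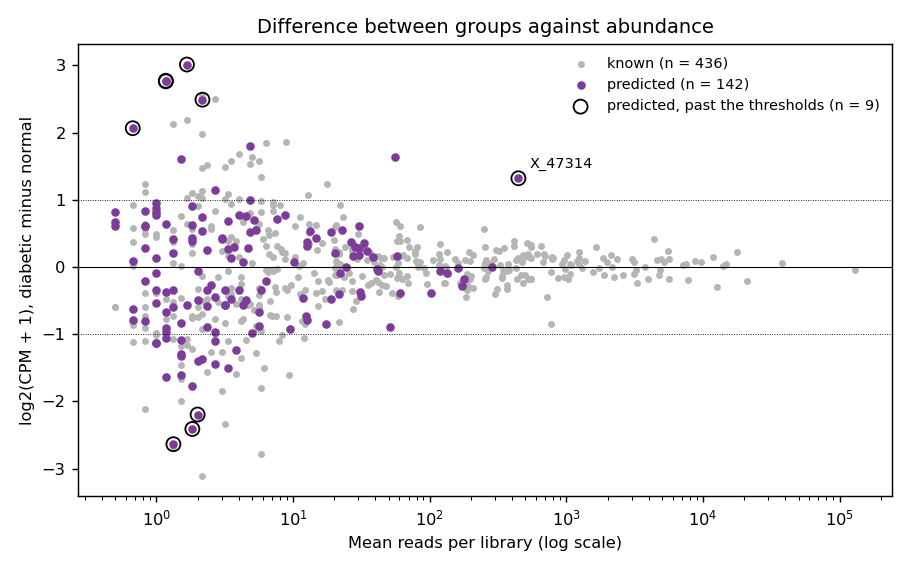
Difference in log2(CPM + 1), diabetic minus normal, against mean reads per library (log scale) for 142 predicted (purple) and 436 known miRNAs (grey); dotted lines mark a difference of 1 and circles the 9 predicted miRNAs past the thresholds. Of the circled points, 8 lie under 10 reads and X_47314 is the only abundant one.

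X_47314 was the only abundant predicted miRNA among the 9. Its means were 1701 ± 1196 CPM for diabetic and 547.5 ± 163 CPM for normal libraries (SD, n = 3 each). The reads behind them were 553, 1056 and 249 against 167, 276 and 373. The log2 difference was 1.32 (SE 0.45, adjusted p = 0.348 by limma), and since the groups overlapped the exact permutation test gave p = 0.3. Its result depended on single libraries and on the method. Without diabetic replicate 2 the difference was 0.77 (limma adjusted p = 0.712), and without diabetic replicate 3 it was 2.09 (limma adjusted p = 0.00795). It no longer passed the thresholds after thinning to equal depth (log2 difference 1.22, limma adjusted p = 0.603) or when eBayes ignored the trend (limma adjusted p = 0.814). The edgeR test on recovered reads gave an adjusted p of 0.0136 and the DESeq2 Wald test 0.635. Over its 17 alternatives the limma, edgeR and DESeq2 adjusted p ran from 0.00795 to 0.814, and the direction was the same in all 17.

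The scarce members that passed and were higher in the diabetic group stood close to the floor. 8_24427 had 2, 2 and 3 reads in the diabetic and 0 reads in each normal library. 1_4957 had 3, 2 and 2 reads against 0, and 16_38094 had 1, 1 and 2 against 0. For these 3, all libraries were at or under 3 reads and no fold is given.

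5_15958 had 6, 3 and 1 reads in the diabetic and 0 in each normal library. With each normal library set at the floor of 3 reads, the diabetic mean was 1.59-fold higher. This is not a lower bound, since no error of the diabetic mean entered it and only diabetic replicate 1 exceeded the floor. The entry also met the filter through the diabetic group alone. 10_30314 had 3, 6 and 2 reads against 0, 0 and 2, a ratio of 6.56 with an exact 95% counting interval from 1.43 to 60.9, and its groups overlapped (exact permutation p = 0.2). That interval pools the reads of each group and leaves out the spread between libraries. In the normal group only replicate 3 had reads, so the diabetic group alone met the filter. The star row of 10_30314 had 3, 5 and 11 reads against 3, 2 and 5.

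The scarce members that passed and were lower were 5_17044, 12_32374 and 3_10234. 5_17044 was at 0 reads in all 3 diabetic libraries and at 2, 4 and 2 reads in the normal ones, too few for a fold. 12_32374 had 0, 0 and 1 reads against 5, 2 and 3, a ratio of 0.119 (exact 95% counting interval 0.00275 to 0.839). 3_10234 had 0, 0 and 2 reads against 4, 4 and 2, a ratio of 0.239 (0.0254 to 1.12). Of the 9 that passed, 7 had groups that did not overlap (all tested, 14.9%), the exceptions being X_47314 and 10_30314. For those 7 the exact permutation p was 0.1, the smallest possible. Since the 9 were picked on these same values, the count, that p and the counting intervals are not separate support. In 5 of the 7 (8_24427, 1_4957, 16_38094, 5_15958 and 5_17044) only the 3 libraries of the higher group had reads, so they entered the test through that group alone. Their lack of overlap and their p of 0.1 were fixed by the filter and carry no weight of their own. 12_32374 and 3_10234 had reads in all 3 normal libraries but in only 1 diabetic library, so the normal group alone met the filter.

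1_4868 had 1, 1 and 2 reads in the diabetic and 4, 6 and 6 reads in the normal libraries, with no overlap, and missed the thresholds (log2 difference -1.50, standard error 0.72, limma adjusted p = 0.551). When eBayes was run without the mean-variance trend it was 1 of 5 predicted miRNAs with an adjusted p under 0.05, together with 1_4957, 16_38094, 5_17044 and 8_24427. Each of these 5 averaged under 10 reads, and 4 of them had a group with 0 reads in every library and entered the test only through the other group, so the filter itself had picked them for a difference.

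Of the 30 predicted miRNAs that reached 10 reads in each of the libraries, 15 were higher and 15 lower, with a median log2 difference of -0.0008. In 25 of the 30 the difference was under 0.5 in size. Apart from X_47314 they ran from -0.89 for 1_2893 (limma adjusted p = 0.394) to 0.61 for 10_30670 (limma adjusted p = 0.685). For 1_2893, 26, 33 and 28 reads stood against 34, 83 and 101, so the groups overlapped in CPM (exact permutation p = 0.3). Its size fell short of the threshold of 1, but it passed after thinning, in the DESeq2 Wald test, in edgeR, without diabetic replicate 2 and without normal replicate 1.

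Groups did not overlap for 3 of these 30. The share was 14.9% over all tested miRNAs, but those include scarce ones, and the share among all miRNAs this deep is not given here. The values of the 3 are given as a description. 17_40750 was at 58.2 ± 7.94 CPM for diabetic and 78.3 ± 6.83 CPM for normal libraries (SD, n = 3 each), with 15, 23 and 35 against 38, 37 and 39 reads and a log2 difference of -0.43 (SE 0.29, adjusted p = 0.728 by limma). 17_40744, from the same run of neighbouring numbers, was at 35.4 ± 7.87 CPM for diabetic and 48.7 ± 3.40 CPM for normal libraries (SD, n = 3 each), with 11, 16 and 15 against 23, 24 and 24 reads and a log2 difference of -0.47 (SE 0.36, adjusted p = 0.774 by limma). 15_37552 was at 67.2 ± 4.79 CPM for diabetic and 52.2 ± 7.85 CPM for normal libraries (SD, n = 3 each), with 21, 23 and 39 against 19, 28 and 30 reads and a log2 difference of 0.37 (SE 0.30, adjusted p = 0.795 by limma). By exact permutation p was 0.1 for each, the smallest possible.

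The other leading members showed no difference beyond the spread between libraries. 11_31672 had 64, 79 and 91 reads in the diabetic and 148, 125 and 103 in the normal libraries, a log2 difference of -0.39 (SE 0.22, adjusted p = 0.671 by limma). 4_15389 differed by -0.38 (SE 0.23, adjusted p = 0.724 by limma) and 2_7622 by -0.28 (SE 0.18, adjusted p = 0.728 by limma). 2_7628, 10_30002, 17_40737, X_46801, 11_31681 and 4_15339 differed by -0.18 to 0.17, with limma adjusted p-values from 0.795 to 0.987. The star rows of the leading pairs had log2 differences from -1.13 for 9_28531_star to 0.43 for 11_31681_star, with limma adjusted p-values from 0.795 to 0.958, and X_46801_star did not enter the test.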

How the data were processed

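Small RNA libraries of 6 rat testes were analysed. According to the study's methods, single-end reads were trimmed of primers and adaptors, small RNAs were counted, known miRNAs were annotated by miRBase family and new ones grouped by seed. The aligner, the program that predicted new miRNAs and the miRBase release are not given in the sources used here. The submitters' processing notes name Bowtie 0.12.2, HISAT2 2.0, StringTie 1.3.0 and build mm8 with no role. The labels' extraction text describes a poly(A) mRNA library, whereas the series is described as miRNA sequencing.

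The deposited values are CPM, rounded by the authors to 1 decimal (the headings call them TPM), and the values of each library summed to the same total within rounding. Whole reads were recovered as the smallest library total at which every value is a whole number of reads, within a rounding tolerance of 0.0501 CPM. This held for 100% of values.

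Groups were compared on log2(CPM + 1) by limma 3.58.1 (R 4.3.3; eBayes with trend), two-sided, keeping miRNAs that reached 1 CPM in 3 or more libraries, with Benjamini-Hochberg adjustment over all tested. Alternatives used edgeR 4.0.16 and DESeq2 1.42.0 on recovered reads. For scarce miRNAs, differences on this scale can be smaller or larger than the ratio of summed reads. The added 1 shrinks them, whereas a library without reads weighs heavily on a mean of logs. Single values per library and log2(CPM + 1) of named miRNAs were compared by a two-sided exact permutation test. The fits were tested on simulated data. Recovery of planted changes was scored only for miRNAs averaging at least 10 reads, not for scarcer ones. Intervals and floors cover counting error only. Nothing states more than that the replicates are separate samples, so p-values measure the spread between these samples.

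The named predicted miRNAs are the 10 most abundant, those past the thresholds, those with an adjusted p under 0.05 in any setting, the 6 most abundant pairs, those with at least 10 reads in every library whose groups do not overlap, and others said to be singled out. The members and lists were chosen with earlier results of these data known. Marker lists also held 2 Sertoli-cell, 4 erythroid, 4 leukocyte and 1 liver miRNA, whose summed levels ran from 3262 to 4467, 544.2 to 782.3, 494.6 to 762.0 and 935.5 to 2786 CPM. No sequences of predicted miRNAs were used here.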

Additional observations from a re-analysis of the deposited data

How the results depend on the processing

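Over all miRNAs there were 0 calls at an adjusted p under 0.05. There were 8 when eBayes ignored the trend and 2 in edgeR. A single call (1) was made by the DESeq2 Wald test, under the replicate block, under upper-quartile scaling, without a filter, and where 10 reads were required in each library. Leaving out one library gave 0 to 2. For predicted miRNAs alone, the count became 5 without the trend and 1 with the edgeR test, and 0 to 1 on leaving out one library, the 1 being X_47314 without diabetic replicate 3. The 9 predicted miRNAs past the thresholds became 5 with the DESeq2 Wald test, of which 4 were among the 9, 8 after thinning, of which 5 were among the 9, and 1 where 10 reads were required in each library, since that filter left 30 to test. X_47314 was lost after thinning and when eBayes ignored the trend. Leaving out one library gave 6 to 8, of which from 2 (without diabetic replicate 2) to 6 (without normal replicate 3) were among the 9. Apart from the filter, the cause was not tested. Same-numbered libraries come from differently treated rats, and their deviations from the group means correlated at -0.113, -0.0733 and -0.0568 over 296 miRNAs. With the replicate block 9 predicted miRNAs passed the thresholds, 8 of them among the 9. With each same-numbered pair as a block, the differences in the shares and in the number detected are unchanged by arithmetic. Their sign-flip p-values were 0.5 to 0.75, where 0.25 is the smallest possible.

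The difference in the predicted share of reads was -0.0162 percentage points without X_47314, against 0.0992 with it. That in the number detected was 0 after thinning and ranged from -14.7 to 1.33 on leaving out one library, being positive only without diabetic replicate 2. That in the star share ranged from -0.84 to 0.11 on leaving out one library, being positive only without normal replicate 1. The X-prefix share kept its direction in every setting. X_46801 moved to 0.0255 on the log2 scale after thinning. When one replicate was left out, 11_31681 ranged from -0.096 to 0.11, X_46801 from -0.15 to 0.13, 17_40737 from -0.23 to 0.13, its star row from -0.087 to 0.25, 4_15389_star from -0.69 to 0.31 and 9_28531 from -0.018 to 2.57. For the 28 named miRNAs with a test, verdicts were compared by direction and by whether the unadjusted p was under 0.05. In 290 comparisons with other settings, 272 gave the same verdict, 10 weaker, 7 stronger and 1 reversed. In 150 with a replicate left out, the numbers were 120, 13, 6 and 11. Settings in which a named miRNA did not enter the test are not counted. The adjusted p was not used for these verdicts. X_47314 thus counts as the same in edgeR (adjusted p = 0.0136) and without diabetic replicate 3 (limma adjusted p = 0.00795). Its limma adjusted p was 0.348 in the main setting. Depth limits most the predicted miRNAs outside the 30 that reached 10 reads in each library. It also limits many of the 30, whose median coefficient of variation from counting alone was 17.4%.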
